A study of Mus musculus with 12 samples.

Results

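The comparison of Crizotinib alone with DMSO took in 6 of the 12 libraries of the series, chosen by their treatment label: 3 from tumourspheres given Crizotinib for 24 h and 3 from tumourspheres given the solvent DMSO for the same time. Crizotinib inhibits the Met receptor tyrosine kinase. Each treatment was measured once in each of 3 mouse mammary tumour lines, A1005, A1129 and A1471, so every Crizotinib library has a DMSO library of its own line. All the lines carry the genotype MMTV-Metmt;Trp53fl/+;Cre, in which the mammary-active MMTV promoter drives a mutant Met transgene and Trp53 carries a loxP-flanked allele, and each was established from a separate tumour of spindle-shaped (spindloid) histology. The remaining 6 libraries, from the same lines, are 3 given the FGFR inhibitor PD173074 and 3 given both inhibitors (the combination). They were used here to set the effect of Crizotinib beside its effect in the presence of PD173074. They also served to set PD173074 and the combination beside DMSO, and entered alternative fits and the gene filter and scaling over all 12 libraries.

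Met is the receptor for hepatocyte growth factor and signals through the Ras-ERK, PI3K-Akt and STAT3 routes. ERK signalling raises transcription of feedback genes such as the Dusp phosphatases and the ETS factors Etv1, Etv4 and Etv5, Akt holds FoxO factors out of the nucleus, and STAT3 induces Socs3 and acute-phase genes. Tumourspheres are aggregates grown in serum-free medium with EGF and bFGF, the latter a ligand of the FGF receptors.

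Depth was even, from 13031492 to 15042414 counts in the 6 libraries. Mesenchymal markers varied. Vim lay between 2250 and 3040 CPM and Twist1 between 97.5 and 129 CPM. CPM are counts scaled to a common library size, by total counts for these markers and by edgeR in later paragraphs. Zeb1 and Fn1 were at least 51.4 and 471 CPM. Cdh2 did not exceed 0.355 CPM, and Prrx1 ran from 0.153 to 313 CPM. Of the epithelial markers, Cdh1, Krt14 and Epcam did not exceed 0.134, 0.23 and 2.06 CPM, while Krt8 reached 19.5 CPM and Krt18 50.2 CPM. Of 8 leukocyte markers 1 passed the filter on low counts and Cd3e and Lyz2 were at 0, and the summed level of that list was 4.55 to 30.9 CPM with DMSO and 4.83 to 32.6 CPM with Crizotinib. None of the 4 endothelial and 3 red cell markers passed the filter. Line identity dominated the libraries: deviations from the treatment means correlated at 0.935 to 0.962 between the 2 libraries of a line and at -0.645 to -0.139 between lines. The deviations of the 3 lines add to 0 within a treatment, which by itself pushes the values between lines below 0. The treatments were therefore compared within lines.

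Crizotinib alone changed few genes, and by little. Of 12537 genes tested, 246 (1.96%) had an adjusted p under 0.05 when edgeR's quasi-likelihood test took the line as a block, 170 higher (1.36%) and 76 lower (0.606%). The median size of change among them was 0.34 on the log2 scale, a 1.27-fold difference, 37 reached 1.5-fold (0.295% of all tested genes) and 12 reached 2-fold (0.0957%). The same direction in all 3 lines was seen for 239 of the 246 (97.2%), against 37.6% of all tested genes (18.9% higher and 18.6% lower), where a line without reads in both libraries counted as no direction. The test itself favours genes whose lines agree, so the high share among its calls adds no separate evidence. Without regard to pairs, 114 genes (0.909%) had all 3 CPM values with Crizotinib above all 3 with DMSO, and 94 (0.75%) had them all below. For 94.9% of tested genes the 95% interval of the log2 fold change (limma-voom) lay within -1 and 1, and for 81.8% within -0.585 and 0.585, so changes above 2-fold were outside the interval for most genes. The calls rested on the pairing together with the fit of these 6 libraries alone. Without the line as a block the same 6 libraries gave 0 calls in edgeR (12 genes at an unadjusted p under 0.05), and a fit of all 12 libraries gave 0 calls with the block (258 unadjusted). DESeq2 with the block called 96 genes, all among the 246, and limma-voom called 222, of which 212 were among the 246. In DESeq2 124 of the 246 did not pass and 26 had no adjusted p, as did 4375 of all 12537 genes.

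The changes of the lines correlated more closely among genes with higher expression. Across all 13836 genes kept in the 12-library table, Pearson's r of the change (log2 CPM with Crizotinib minus DMSO) between 2 lines was 0.134 to 0.153, and it rose from 0.091 to 0.118 in the lowest of 4 equal bins of expression to 0.408 to 0.429 in the highest. These correlations run over genes of the same 6 libraries, and genes are not independent replicates. The lowest bin spans a mean log2 CPM of -2.89 to 1.62, where counting error from few reads lowers r. Whether the response itself differed with expression level was not tested.

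**Figure D1:**
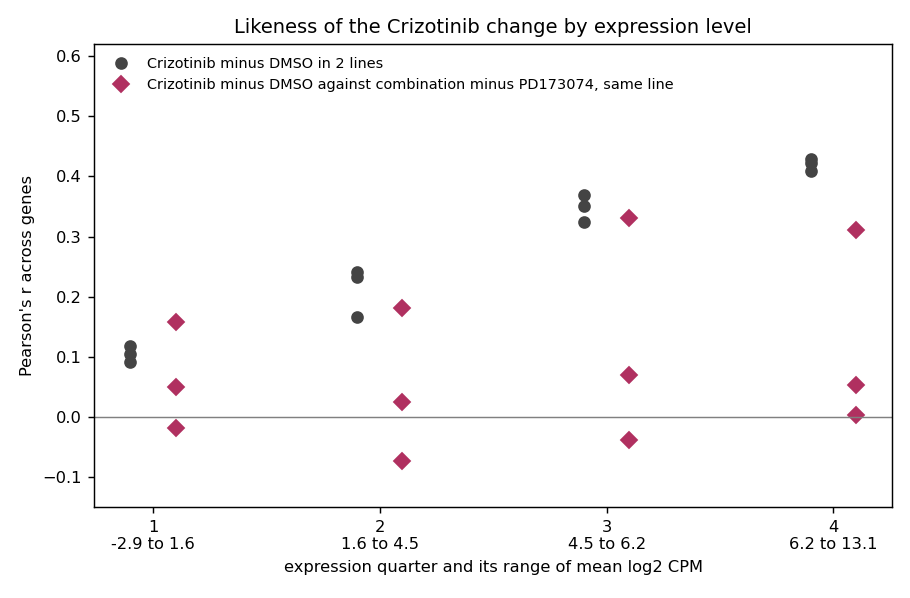
Pearson's r across genes, in 4 equal bins of expression (x axis, with the range of mean log2 CPM). Circles are the 3 pairs of lines for the Crizotinib change, and diamonds the 3 lines for Crizotinib minus DMSO against combination minus PD173074. The circles climb with expression to 0.408 to 0.429, and the diamonds are highest in A1129 (0.331 in the third bin and 0.310 in the top bin, where A1005 had 0.054 and A1471 0.0038).

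Interferon-inducible GTPases act against intracellular pathogens. Iigp1, a member, had the largest fitted fall of all called genes. All 10 tested members lay lower in every line, and 4 passed the test. Gbp2 (chr3:142620602-142638008) went from 30.7 to 15.1 CPM in A1005, from 16.3 to 6.38 CPM in A1129 and from 14.1 to 6.98 CPM in A1471, lower in each line while A1005 with Crizotinib stayed above A1471 with DMSO, so the groups overlapped (log2 fold change -1.12, adjusted p = 3.04e-04 by edgeR, 95% interval -1.34 to -0.87). Iigp1 was read 118, 104 and 23 times with DMSO in A1005, A1129 and A1471 and 3, 2 and 1 times with Crizotinib. The groups did not overlap, and scaled to library size its summed counts were 41.9-fold lower, with an exact interval of 19 to 115-fold that covers counting error only. Igtp (log2 fold change -1.11, adjusted p = 0.0126) and Gbp7 (log2 fold change -0.54, adjusted p = 0.0462) also fell. Igtp overlaps Irgm2 on the same strand in the annotation, so reads in the shared stretch cannot be assigned to either. Irgm1 (log2 fold change -0.47, adjusted p = 0.0959) and Irgm2 (log2 fold change -0.53, adjusted p = 0.253) did not pass. The list therefore held 4 calls of 10 (40.0%, all lower, against 0.606% of all tested genes), with median changes of -0.72, -1.31 and -0.77 in A1005, A1129 and A1471. Of 16 members counted, 10 passed the filter on low counts, which a gene high only with DMSO can pass, as Iigp1 did. DESeq2 gave no adjusted p for any of the 10. With at least 10 counts required in every library 5 stayed tested, and 2 of these were called. In bulk libraries, fewer cells expressing a gene and less RNA per cell cannot be told apart.

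The promoters of this family were searched for the sequence through which interferon signalling acts. The list was chosen as interferon-inducible genes, so a high share with that sequence describes the list, not the effect of Crizotinib. Whether interferon signalling changed was not tested. RefSeq promoters (GRCm38.p6) were found for 7 of the 10 genes, and all 7 held the core of the interferon-stimulated response element (GAAA, any 2 bases, then GAAA, on either strand) within 250 bases before the start, against 3.46% of 27025 promoters and 2.99% of those of tested genes. The gamma-activated site core TTCNNNGAA, bound by STAT dimers, was in 4 of the 7 (57.1%, against 8.13% and 7.1%). Among genes called lower with a promoter, 3 of 61 (4.92%) held the first motif and 10 of 61 (16.4%) the second, and among genes called higher 2 of 128 (1.56%) and 8 of 128 (6.25%). The 3 were Gbp2, Gbp7 and Igtp, members of the same list. A match is a run of letters in this window, not a shown binding site. The 160 bases before the start of 5 family members and of Socs3 follow, with matches in capitals: the response element core or its complement in the GTPases, TTCNNNGAA in Gbp7, Igtp, Irgm2 and Socs3, and the AP-1 motif TGANTCA in Gbp2 and Irgm1. In Irgm1 both matches of that core overlap.
Gbp2 (chr3:142620503-142620662, plus strand): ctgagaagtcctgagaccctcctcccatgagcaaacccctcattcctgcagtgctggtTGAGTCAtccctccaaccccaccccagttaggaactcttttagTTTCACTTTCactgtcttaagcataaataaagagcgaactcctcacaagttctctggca
Gbp7 (chr3:142530176-142530335, plus strand): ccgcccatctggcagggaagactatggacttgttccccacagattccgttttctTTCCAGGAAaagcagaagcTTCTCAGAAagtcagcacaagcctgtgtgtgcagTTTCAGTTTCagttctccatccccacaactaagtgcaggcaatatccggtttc
Igtp (chr11:58199396-58199555, plus strand): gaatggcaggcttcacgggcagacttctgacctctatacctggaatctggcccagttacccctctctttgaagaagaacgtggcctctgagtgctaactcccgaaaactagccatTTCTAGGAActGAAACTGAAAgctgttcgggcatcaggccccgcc
Irgm1 (chr11:48871421-48871580, minus strand): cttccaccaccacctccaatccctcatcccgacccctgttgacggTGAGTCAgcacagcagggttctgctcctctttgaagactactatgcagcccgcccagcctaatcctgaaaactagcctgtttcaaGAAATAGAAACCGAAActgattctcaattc
Irgm2 (chr11:58214817-58214976, plus strand): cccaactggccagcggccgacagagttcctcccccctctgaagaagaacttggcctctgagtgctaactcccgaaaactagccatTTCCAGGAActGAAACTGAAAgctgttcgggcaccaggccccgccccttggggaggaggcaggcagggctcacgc
Socs3 (chr11:117969367-117969526, minus strand): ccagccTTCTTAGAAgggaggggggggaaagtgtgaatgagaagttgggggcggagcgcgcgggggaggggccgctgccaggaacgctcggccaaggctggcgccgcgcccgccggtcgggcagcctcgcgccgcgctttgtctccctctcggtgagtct

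Other interferon-stimulated genes lay lower by less. Of 27 tested, 26 had a negative fold change and 17 were lower in all 3 lines (against 18.6% of all genes). In the MHC class I list 9 of 17 were lower in every line (18.6% of all genes) and 1 was called lower (0.606%), the immunoproteasome subunit Psmb10 (log2 fold change -0.32, adjusted p = 0.036), which was not called without A1471 or with offsets for exon length and GC content. Set side by side in the 12-library fit, in which the comparisons share the DMSO libraries, PD173074 against DMSO gave a median change of 1.63 for the GTPases and the combination 2.21, where Crizotinib alone gave -0.92 in the paired fit. For Gbp2 the fold change of Crizotinib was -1.12 without PD173074 and 1.05 in its presence (combination against PD173074), and the 2 differed (interaction 2.22, adjusted p = 0.0447).

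Of 20 tested cytokines and chemokines 3 were called lower and 1 higher, against 0.606% and 1.36% of all tested genes, and the list's median was -0.060. With at least 10 counts required in every library, none was called. Il24 (chr1:130882074-130887454), a cytokine of the interleukin-10 family, went from 2.50 to 0.273 CPM in A1005, from 18.5 to 3.19 CPM in A1129 and from 2.06 to 0.288 CPM in A1471. It was lower in every line, and since A1005 and A1471 had 4 reads each with Crizotinib, the ratio of summed counts is the firmer value, 6.25-fold lower with a counting interval of 4.71 to 8.43-fold (adjusted p = 5.20e-05). The alarmin Il33 was lower mainly in A1005 and A1129 (log2 fold change -0.80, adjusted p = 0.0102, per-line changes -0.61, -1.52 and -0.27), while A1471 hardly expressed it. The macrophage growth factor Csf1 was called lower as well (log2 fold change -0.27, adjusted p = 0.0461). Socs3, the feedback inhibitor of JAK-STAT3 signalling, went from 214 to 161 CPM in A1005, from 61.8 to 29.4 CPM in A1129 and from 42.2 to 30.4 CPM in A1471 (log2 fold change -0.62, adjusted p = 0.00778). Genes called lower outside the list, chosen after their values were seen, were Bcl3, a cofactor of NF-kappaB (log2 fold change -0.35, adjusted p = 0.0418), Nos2, the inducible nitric oxide synthase (log2 fold change -0.92, adjusted p = 0.0422), and the secreted pentraxin Ptx3 (log2 fold change -1.23, adjusted p = 0.0321). The cytokine called higher was Tslp (log2 fold change 1.25, adjusted p = 0.00206). The counts of Ptx3 summed to 106 with DMSO and 47 with Crizotinib, 2.32-fold lower with a counting interval of 1.63 to 3.34-fold.

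**Figure D2:**
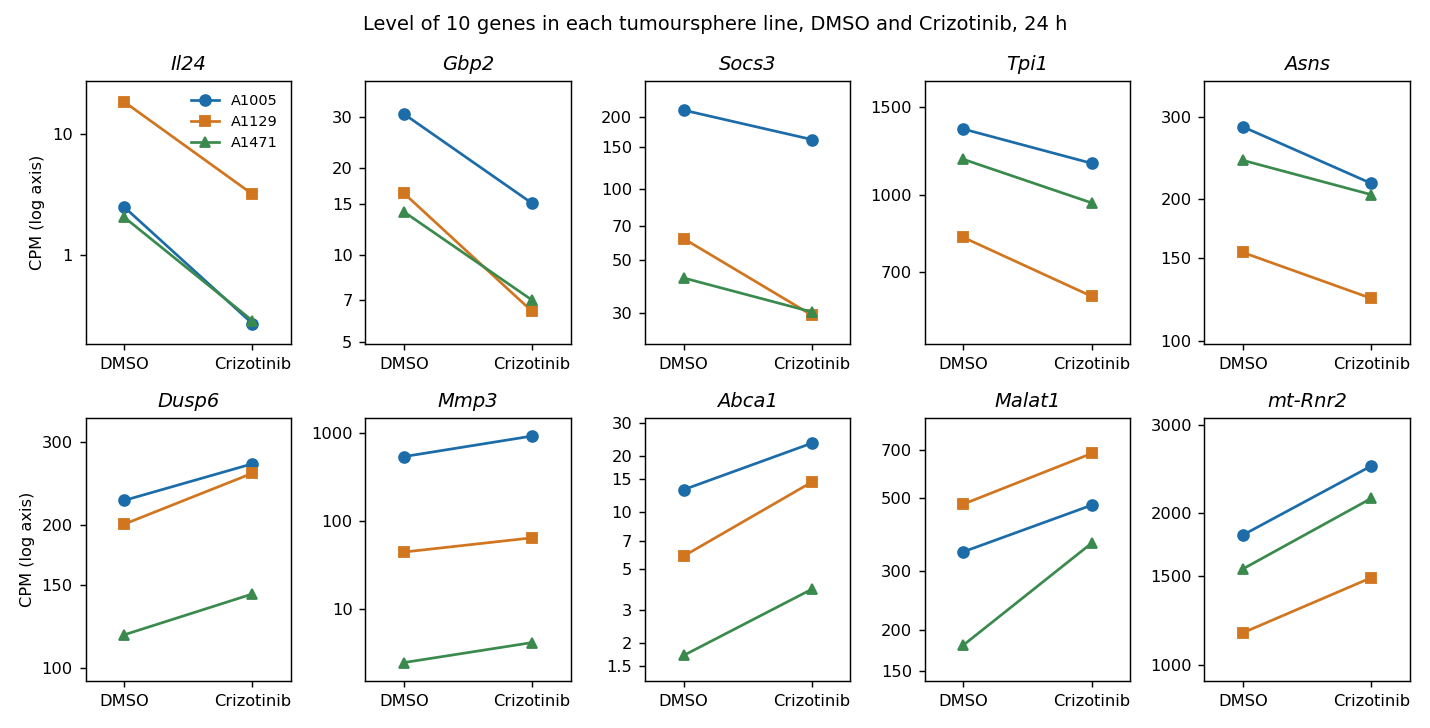
CPM (log axis) of 10 genes in each line with DMSO and with Crizotinib, 1 library per point, with a line joining the 2 libraries of a tumoursphere line. Every gene shown moved the same way in all 3 lines, while the lines differ from each other by more than the treatments for most of them, for example Mmp3 at 534, 44.3 and 2.47 CPM with DMSO.

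Many glycolysis and hypoxia genes fell by small amounts. Of 34 tested, 32 had a negative fold change, 23 were lower in all 3 lines and 13 were called lower (41.2% called in either direction, against 1.96% of all genes), with medians of -0.15, -0.31 and -0.14 in A1005, A1129 and A1471. Without A1129 the calls were 8 lower and 0 higher. Tpi1 (triose phosphate isomerase, chr6:124810586-124814296) went from 1352 to 1155 CPM in A1005, from 821 to 626 CPM in A1129 and from 1176 to 962 CPM in A1471, a fold change of -0.30 (95% interval -0.39 to -0.21, adjusted p = 0.00747). The glycolytic enzymes Gapdh (-0.27), Pfkp (-0.26), Pfkl (-0.26), Pgam1 (-0.26), Ldha (-0.25), Eno1 (-0.24) and Pgk1 (-0.22) fell on the same scale, with adjusted p between 0.0141 and 0.0456 in edgeR, as did the lactate exporter Slc16a3 (-0.32), the hypoxia-inducible prolyl hydroxylase Egln1 (-0.25), the mitophagy receptor Bnip3 (-0.28) and the peptide hormone gene Adm (-0.78). Aldoa made up the count and is given without values, since its symbol covers 2 gene identifiers. Higd1a, a hypoxia-inducible mitochondrial protein, fell as well (log2 fold change -0.41, adjusted p = 0.00883). The exception was Pfkfb3, which makes the allosteric activator of phosphofructokinase and rose (log2 fold change 0.28, adjusted p = 0.0278). The median change was largest in A1129, but the difference between lines was not tested, since each line has 1 library per treatment. Gapdh is often used to normalise qPCR, and here it stood at 2098, 1311 and 1687 CPM with DMSO and 1820.2, 1005 and 1452 CPM with Crizotinib.

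Amino acid and one-carbon genes under the stress factor ATF4 gave a similar picture. Of 34 tested, 32 had a negative fold change, 22 were lower in all 3 lines (18.6% of all genes) and 7 were called, all lower (0.606% of all genes), with medians of -0.15, -0.21 and -0.16. Without A1005, 12 were called lower and 1 higher. Asns (asparagine synthetase, chr6:7675169-7693254) went from 285 to 216 CPM in A1005, from 154 to 123 CPM in A1129 and from 242 to 205 CPM in A1471 (log2 fold change -0.32, adjusted p = 0.00747). The serine synthesis enzymes Psph (-0.37, adjusted p = 0.0141) and Psat1 (-0.20, 0.0324), the mitochondrial folate enzymes Mthfd2 (-0.37, 0.0102), Shmt2 (-0.23, 0.0366) and Aldh1l2 (-0.36, 0.0126) and the alanyl-tRNA synthetase Aars (-0.24, 0.0264) made up the rest. With PD173074 present, Crizotinib lowered Mthfd2 by more (combination against PD173074 -1.85, interaction -1.5, adjusted p = 9.62e-04), and likewise Shmt2 (-1.60, interaction -1.38, adjusted p = 3.35e-04).

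Genes of replication, translation and protein turnover lay slightly lower, with few single genes past the test. In the DNA replication list 39 of 42 genes had a negative fold change and 27 were lower in all 3 lines, with 2 called lower (4.76%, against 0.606% of all genes, and 1 without A1471), the helicase subunit Mcm5 (log2 fold change -0.22, adjusted p = 0.0298) and the ribonucleotide reductase subunit Rrm2 (log2 fold change -0.23, adjusted p = 0.0321). Mcm5 carries the E2F motif TTCGCGC, shown in capitals, which 1.48% of all promoters and 3.07% of those of tested genes hold. In the replication list 5 of 34 (14.7%) held it, which describes the list, not the effect of Crizotinib.
Mcm5 (chr8:75109349-75109508, plus strand): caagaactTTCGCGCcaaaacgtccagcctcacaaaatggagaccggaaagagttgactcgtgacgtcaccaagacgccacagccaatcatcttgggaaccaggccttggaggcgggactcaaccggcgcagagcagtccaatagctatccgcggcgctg
In the mitosis list 1 of 36 was called (2.78%, near the 1.96% of all genes), the kinetochore subunit Spc24 (log2 fold change -0.40, adjusted p = 0.0165). Lower in all 3 lines were 57 of 87 cytosolic ribosomal proteins, 44 of 78 mitochondrial ribosomal proteins, 40 of 75 nuclear respiratory chain subunits and 30 of 37 proteasome subunits, against 18.6% of all tested genes, with medians of -0.052, -0.10, -0.079 and -0.10. These are short genes, and with the dependence on exon length and GC content subtracted the medians were -0.020, -0.083, -0.052 and -0.077. None of these genes passed the test except Psmb10 among the proteasome subunits. At an unadjusted p under 0.05 in edgeR the counts were 9 of 87, 21 of 78, 15 of 75 and 16 of 37, all lower. Of all tested genes 868 of 12537 were lower at that level, and the cytosolic ribosomal proteins came closest to that share.

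Some transcripts of the mitochondrial genome rose. The 16S ribosomal RNA mt-Rnr2 went from 1812 to 2484 CPM in A1005, from 1158 to 1489.9 CPM in A1129 and from 1551 to 2142 CPM in A1471 (log2 fold change 0.43, adjusted p = 4.01e-04), higher in each line by 0.46, 0.36 and 0.47. The 12S ribosomal RNA mt-Rnr1 gave log2 fold change 0.21, adjusted p = 0.0321. Of 12 tested genes in the list of mitochondrially encoded genes 8 were higher in all 3 lines (18.9% of all genes) and 4 were called higher (1.36% of all genes, and 2 of the 12 with offsets for exon length and GC content), the complex I subunits mt-Nd1 (0.21), mt-Nd2 (0.26), mt-Nd5 (0.30) and mt-Nd6 (0.51). mt-Nd5 and mt-Nd6 overlap on opposite strands, and whether the counting used strand is not given in the sources used here. The share of counts from mitochondrial genes was 1.21 to 1.29% with DMSO and 1.44 to 1.48% with Crizotinib, without overlap. The nuclear-retained RNA Malat1 also rose (log2 fold change 0.66, adjusted p = 0.00206), from 179 to 365 CPM in A1471 and by smaller ratios in the other lines, and so did Zc3h11a, an RNA export factor whose gene overlaps others on its strand (log2 fold change 0.49, adjusted p = 0.044). Whether RNA quality or nuclear content differed between the libraries was not tested.

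No gene of the ERK list was called lower with Crizotinib alone in the main fit. Without A1005, without A1471 or with no filter on low counts, 1 was called lower. Of 25 tested, 12 were higher in all 3 lines and 1 lower (18.9% and 18.6% of all genes), and 2 were called, both higher (1.36% of all genes, and 4 of the 25 without A1129): the ERK phosphatase Dusp6, which went from 226 to 269.8 CPM in A1005, from 201 to 258 CPM in A1129 and from 117 to 143 CPM in A1471 (log2 fold change 0.30, adjusted p = 0.00882), and Etv1 (log2 fold change 0.29, adjusted p = 0.0264). Spry4 (log2 fold change 0.22, adjusted p = 0.322), Ccnd1 (log2 fold change 0.13, adjusted p = 0.179), Etv4 (log2 fold change 0.034, adjusted p = 0.789) and Etv5 (log2 fold change 0.13, adjusted p = 0.294) did not pass, and the 95% intervals were -0.067 to 0.13 for Etv4 and 0.0051 to 0.26 for Etv5. Fosl1 had the lowest unadjusted p of the genes with a negative change (log2 fold change -0.23, adjusted p = 0.0697). Side by side in the 12-library fit, the list median was -0.63 for PD173074 against DMSO and -2.70 for the combination against DMSO, where Crizotinib alone gave 0.13 in the paired fit. Dusp6 was higher with Crizotinib alone and lower with Crizotinib on PD173074 (combination against PD173074 -4.03, interaction -4.28, adjusted p = 3.93e-05), and Etv1 likewise (-2.32, interaction -2.58, adjusted p = 9.03e-05).

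FoxO target genes lay mostly higher. Of 19 tested, 15 had a positive fold change and 10 were higher in all 3 lines (18.9% of all genes), with medians of 0.22, 0.33 and 0.13, and 2 were called higher (1.36% of all genes). Without A1005, 8 were called and without A1471, 5. The 2 were Trp53inp1, a stress protein of p53 and FoxO (from 23.8 to 33.1 CPM in A1005, from 6.94 to 16.7 CPM in A1129 and from 5.70 to 10.1 CPM in A1471, log2 fold change 0.79, adjusted p = 0.0102), and Bcl2l11, which encodes the pro-apoptotic protein Bim (log2 fold change 0.35, adjusted p = 0.0321). On PD173074 the fold changes of Crizotinib were 1.68 and 1.06, which were not shown to differ from those without it (interaction 0.95, adjusted p = 0.375 and 0.73, adjusted p = 0.0605). The cholesterol exporters Abca1, which went from 13.2 to 23.4 CPM in A1005, from 5.83 to 14.5 CPM in A1129 and from 1.72 to 3.88 CPM in A1471 (log2 fold change 1.05, adjusted p = 0.00206), and Abcg1 (log2 fold change 0.42, adjusted p = 0.0321) rose too.

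Integrins and laminins lay mostly higher. Among integrin and laminin chains 18 of 23 had a positive fold change, 10 were higher in all 3 lines (18.9% of all genes) and 5 were called, all higher (1.36% of all genes): the laminin chain Lama5 (log2 fold change 0.43, adjusted p = 0.00609) and the integrins Itga8 (0.48), Itgb3 (0.57), Itga10 (0.69) and Itga5 (0.21). The matrix protease list split, with 3 called higher and 4 lower of 19 (1.36% and 0.606% of all genes). Without A1129 these were 4 and 2. The stromelysin Mmp3 (chr9:7445822-7455975) went from 534 to 914 CPM in A1005, from 44.3 to 64.2 CPM in A1129 and from 2.47 to 4.17 CPM in A1471 (log2 fold change 0.68, adjusted p = 3.04e-04), a 1.61-fold rise over levels that differ by far more between lines. Mmp9 (0.46) and the protease inhibitor Serpine2 (0.37) rose, while the membrane-bound Mmp14 (-0.23) and Adamts1 (-0.30) fell. Serpinb2 was called lower (adjusted p = 0.0313). It went in A1005 and A1129 from 197 to 102 and from 110 to 5 reads, with 0 reads in both libraries of A1471. Genes called higher held the AP-1 motif in 12 of 128 promoters (9.38%) and genes called lower in 5 of 61 (8.2%). In the matrix protease list 5 of 13 (38.5%) held it, Serpinb2 among them, which describes the list, not the effect of Crizotinib. The Mmp3 promoter holds this motif, shown in capitals, as do 7.82% of all promoters and 5.4% of those of tested genes.
Mmp3 (chr9:7445662-7445821, plus strand): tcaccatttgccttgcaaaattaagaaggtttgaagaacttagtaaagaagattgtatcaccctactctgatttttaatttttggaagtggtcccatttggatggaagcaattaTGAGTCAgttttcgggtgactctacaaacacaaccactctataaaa

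The other genes with the smallest p came from no single list. Higher were Flt1, a VEGF receptor (log2 fold change 0.58, adjusted p = 0.00115), the fatty acid binding protein Fabp4 (log2 fold change 0.90, adjusted p = 4.01e-04), the Golgi mannosidase Man1a (0.49), the pyrophosphate transporter Ank (0.44), the osmotic stress factor Nfat5 (0.36), the formin Fmnl2 (0.36), Mmd (0.50), Plet1 (0.95) and the matricellular protein Ccn3 (0.56). Fabp4 also marks adipocytes, whose markers Adipoq and Plin1 were at 0 in all 6 libraries. Mgp (0.66) rested on A1129, with 269 and 439.5 CPM there and far less in the other lines. Lower were the proliferins Prl2c3 (log2 fold change -1.14, adjusted p = 3.27e-04) and Prl2c2 (log2 fold change -0.93, adjusted p = 0.0102), whose near-identical copies can share reads, the matrix proteins Fbln2 (-0.58) and Pcolce (-0.37), the transcriptional repressor Bhlhe40 (-0.32) and galectin-3, Lgals3 (-0.34). The smaller lists gave the Hippo effector Wwtr1 (log2 fold change 0.34, adjusted p = 0.0032) and Crim1 (0.29), Notch2 (0.31) and its ligand Jag2 (0.26), the keratins Krt8 (0.62) and Krt18 (0.45), the EGF receptor ligand Btc (0.75) and the lysosomal protease Ctsl (0.19) as called higher, and the haem oxygenase Hmox1 (-0.27) as called lower. Cxcr4, read 0, 12 and 14 times with DMSO and 0, 60 and 41 times with Crizotinib in A1005, A1129 and A1471, and Pi16, read 5, 45 and 0 times and 13, 148 and 6 times, had the highest fold changes among genes called higher (3.78-fold and 3.25-fold by summed counts, counting intervals 2.44 to 6.07 and 2.36 to 4.55) and were singled out after their values were seen.

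The inhibitor's target Met went from 5100.2 to 4813 CPM in A1005, from 4906 to 4373 CPM in A1129 and from 2599 to 2127 CPM in A1471, lower in all 3 lines but not past the test (log2 fold change -0.18, adjusted p = 0.0735, 95% interval -0.27 to -0.084). Fgfr1 lay higher mainly in A1129 (per-line changes 0.017, 0.40 and 0.043, log2 fold change 0.15, adjusted p = 0.273), and the adaptor Frs2 was at 0.16 (adjusted p = 0.222). The chromatin factor Hmga2 was called higher (log2 fold change 0.21, adjusted p = 0.0449). Cd44 (log2 fold change 0.15, adjusted p = 0.174), the mesenchymal factor Twist1 (log2 fold change 0.13, adjusted p = 0.23), the cell cycle factor Mybl2 (log2 fold change -0.19, adjusted p = 0.232), Gdpd2 (log2 fold change -0.34, adjusted p = 0.508) and Hes1 (95% interval -0.29 to 0.23) did not pass. With Hmga2 these are genes that the study measured by qPCR, and Aldh1l1 and Ogn, also measured, did not pass the filter on low counts. The apoptosis genes Bad (95% interval -0.19 to 0.18) and Bmf (-0.41 to 0.63) did not pass the test. For Hmga2 the fold change in the 12-library fit was -0.64 with PD173074 and -2.85 with the combination.

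No gene was called among receptor tyrosine kinases and adaptors (22 tested), cholesterol and fatty acid synthesis (31), the unfolded protein response (18), heat shock proteins (19), D cyclins and CDK inhibitors (19), contractile and SRF genes (13), the TGF beta, BMP and Id list (18), the Wnt pathway (12), collagen chains (17) or histones (16). At an unadjusted p under 0.05, 9 genes of the first list were higher and 1 lower, and 0 and 8 of the cholesterol list, against 15.9% of all tested genes in either direction.

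**Figure D3:**
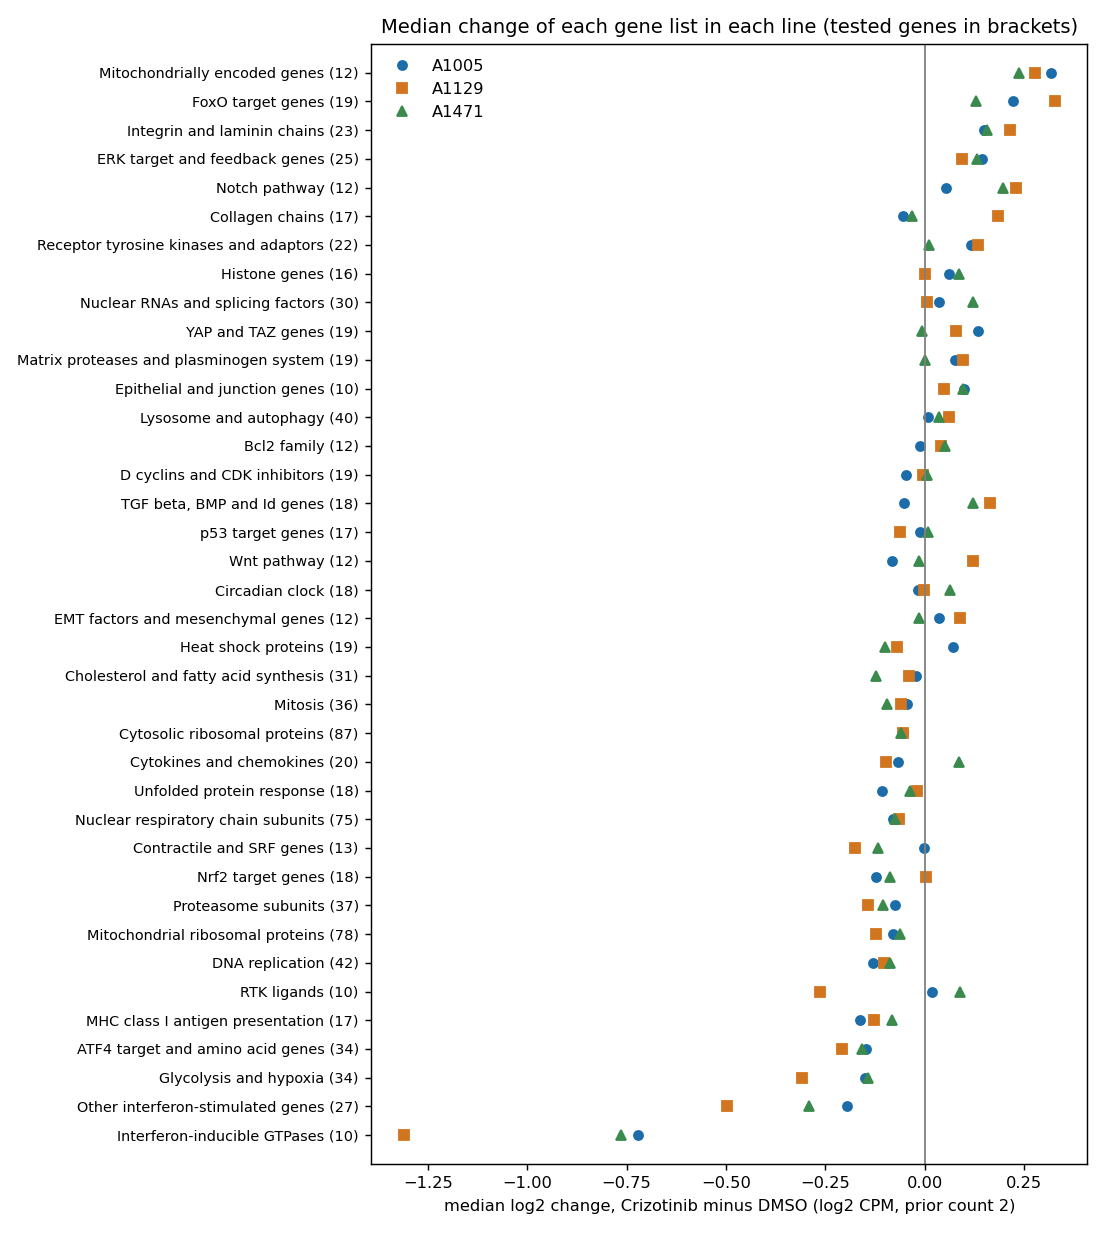
Median log2 change (Crizotinib minus DMSO) of each list of 10 or more tested genes in each line, with the number of tested genes in brackets and the median of all tested genes as a vertical line. Interferon, glycolysis and ATF4 lists lie to the left in all 3 lines, mitochondrially encoded, FoxO, integrin and ERK lists to the right, and lists such as Wnt, TGF beta and RTK ligands lie on both sides.

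Reactome pathways were ranked by the median change of their genes, with no test. Of 646 pathways with 15 to 500 tested genes, 84 had a median above that of all genes in every line, 273 below it and 289 on both sides. The highest by the line nearest to 0 were integrin cell surface interactions (46 genes, medians 0.12, 0.14 and 0.078), O-linked glycosylation (28 genes, 0.077, 0.12 and 0.13) and its mucin subset, laminin interactions (22 genes, 0.15, 0.20 and 0.075) and collagen degradation (33 genes, 0.053, 0.17 and 0.059). The lowest were gluconeogenesis (25 genes, -0.14, -0.20 and -0.12), glycolysis (22 genes, -0.12, -0.26 and -0.14) and class I MHC antigen processing (28 genes, -0.11, -0.14 and -0.11). The last shares nearly all its tested genes with the ER-phagosome and immune system pathways that completed the lowest 5.

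The same inhibitor was next compared on top of PD173074. The combination minus PD173074 shares no library with Crizotinib minus DMSO. Of 242 called genes also tested there, 146 (60.3%) had the same sign, against 56.2% of all genes tested in both. By direction, 57 of 76 genes called lower (75%) had the same sign against 55.0% of all genes with a negative change, and 89 of 166 genes called higher (53.6%) against 57.4% of those with a positive change. With an adjusted p under 0.05 for the combination against PD173074, a test that 30.5% of its 12821 genes passed, 36 of the genes called lower fell again and 8 rose, and 34 of the genes called higher rose again and 35 fell. Il24 (-2.63 alone, -6.02 on PD173074), Il33 (-0.80, -3.38) and Asns (-0.32, -1.05) are of the first kind. Dusp6, Etv1, Hmga2 (-2.22) and Mmp3 (-1.67) are of the last. Across all genes A1005 gave a same-line r of 0.027 between the 2 differences, A1129 one of 0.18 and A1471 one of -0.014. When the calls were made without A1129, 45.7% of them had the same sign.

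**Figure D4:**
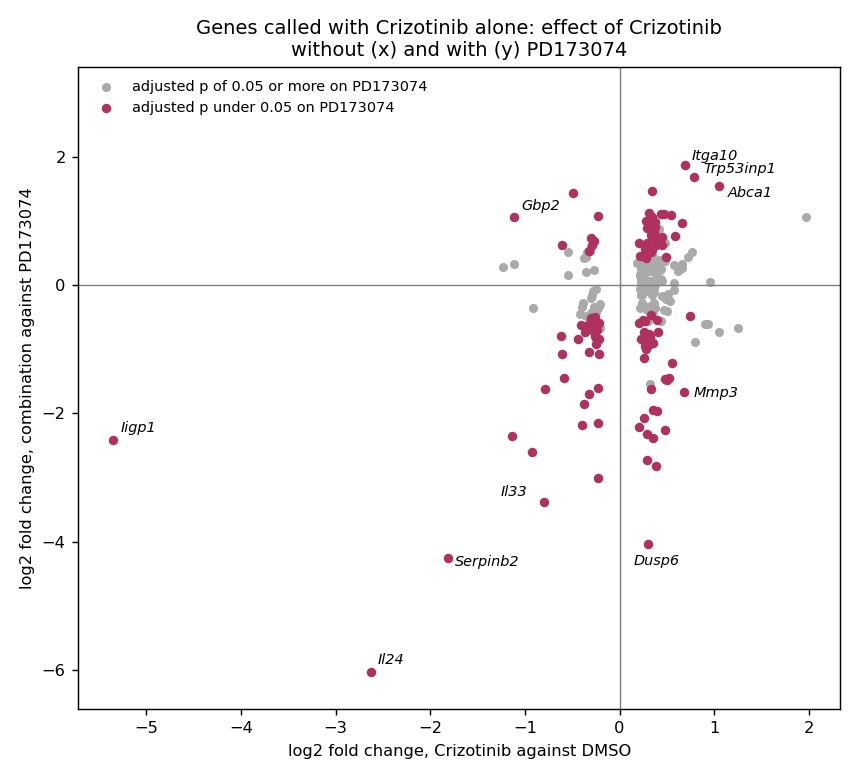
Log2 fold change of Crizotinib against DMSO (x axis) and of the combination against PD173074 (y axis) for 242 genes called in the first. Red points also passed an adjusted p of 0.05 in the second. Points on the right fall on both sides of 0, with Dusp6 at -4.03 and Itga10 at 1.87 on the y axis, and most points on the left lie below 0.

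Small changes also followed gene length. The median change rose from -0.043, -0.064 and -0.027 in the bin of genes with the shortest exon length, of 10 equal bins, (median 879 bases) to 0.087, 0.084 and 0.021 in the bin with the longest (12200 bases) in A1005, A1129 and A1471. Genes called higher had a median exon length of 6375 bases and genes called lower 3329 bases, against 4287 bases for all tested genes. With a smooth of the change on exon length and GC content subtracted in each line, the list medians became -0.84 for the interferon GTPases, -0.17 for glycolysis and hypoxia, -0.14 for ATF4 targets, -0.092 for DNA replication, 0.20 for FoxO targets, 0.15 for ERK targets, 0.12 for integrins and laminins and 0.21 for mitochondrially encoded genes, all on the same side of 0, while cytosolic ribosomal proteins came to -0.020 and collagens to 0.0018. In the paired fit with these offsets 236 genes were called (144 higher and 92 lower), of which 194 were among the 246. The higher share of the calls was then 61.0% in place of 69.1%.

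**Figure D5:**
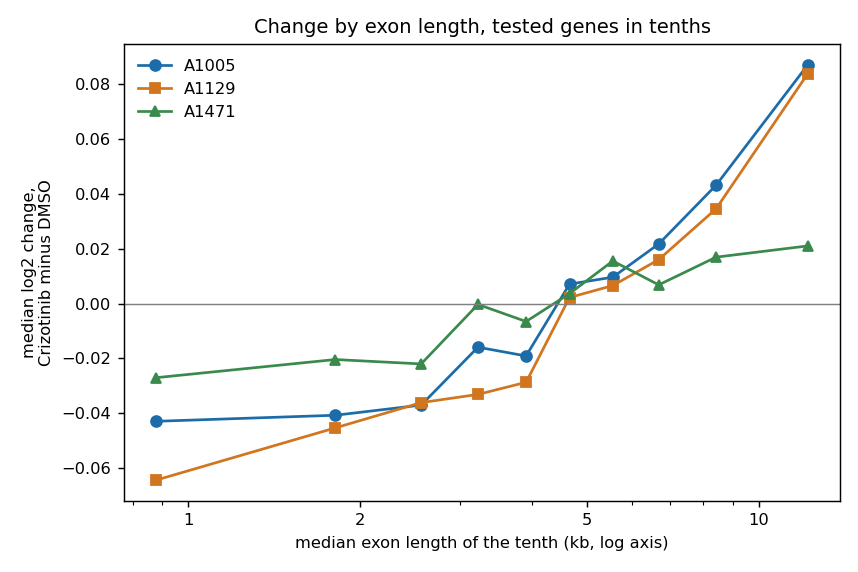
Median log2 change with Crizotinib in each line for tested genes sorted into 10 bins by exon length (x axis, kilobases, log axis). All the lines climb from below 0 to above 0, A1471 least (from -0.027 to 0.021).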

How the data were processed

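RNA was sequenced from 12 libraries of 3 tumoursphere lines, of which 6 form the comparison of Crizotinib with DMSO. The deposited table holds raw gene counts, which per the labels the authors made by aligning NextSeq500 reads to mm10 with STAR and counting with HTSeq. The annotation release and strand setting are not given in the sources used here. Depth was 13031492 to 15042414 counts per library, and counting intervals cover counting error only.

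Genes were kept by edgeR's filterByExpr with a minimum count of 10. After TMM scaling, edgeR 4.0.16 quasi-likelihood tests were fitted on the 6 libraries with line as a block (R 4.3.3), with Benjamini-Hochberg adjustment at 0.05. The pairing comes from the line names. The study compared groups without pairing, which was run as an alternative, with DESeq2 1.42.0, limma-voom 3.58.1, other scalings and filters, and each line left out. With 3 pairs an exact sign-flip test cannot go below 0.25. Per-line changes are differences of log2 CPM (prior count 2). The scripts were tested on simulated data.

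Named genes were drawn from up to 15 called genes a direction by p, the 10 higher and 10 lower genes with the smallest unadjusted p among genes that moved one way in all 3 lines and had a mean log2 CPM no lower than 3, the 5 smallest p at any level, the 4 members of each list with the smallest p, and Met, Fgfr1 to Fgfr4, Frs2, Hgf, Fgf2 and the qPCR genes of the study. Genes outside this rule were chosen after their values were seen: Irgm1, Irgm2, Bcl3, Ptx3, Nos2, Serpinb2, Pgam1, Pfkl, Eno1, Pgk1, Slc16a3, Egln1, Adm, Bnip3, Pfkfb3, Aars, Psat1, Shmt2, mt-Rnr1, Spry4, Ccnd1, Fosl1, Etv4, Etv5, Mmp9, Mmp14, Itga5, Abcg1, Cxcr4 and Pi16. The members and gene lists were chosen with earlier results of these data known. Coordinates and exon lengths are from GENCODE M21 (GRCm38, the same assembly as mm10), promoters from RefSeq, and pathways from Reactome. Some items are not reported here.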

Additional observations from a re-analysis of the deposited data

Results flagged for a closer look

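For 41 of the 107 named genes (38.3%) the effect of Crizotinib on PD173074 (combination minus PD173074) differed from its effect on DMSO, by the interaction in edgeR's quasi-likelihood test of all 12 libraries at an adjusted p of 0.05, against 16.2% of 13836 genes. Named genes include genes of lists chosen with earlier results known, so the shares are not comparable as evidence. The values in brackets are the difference of the 2 log2 fold changes, negative where Crizotinib lowered the gene further, or raised it less, on PD173074. It was negative for 31 genes. Among ERK targets and their feedback genes these were Spry4 (-5.10), Ccnd1 (-4.47), Dusp6 (-4.28), Etv5 (-4.03), Etv4 (-3.77), Fosl1 (-2.75) and Etv1 (-2.58). Among cytokines and a growth factor these were Il24 (-3.65), Il33 (-2.51) and Btc (-1.92). Among cell cycle genes these were Rrm2 (-2.73), Mybl2 (-2.68), Mcm5 (-1.91) and Spc24 (-1.78). Among matrix, adhesion and stemness genes these were Mmp3 (-2.43), Hmga2 (-2.41), Ccn3 (-1.84), Cd44 (-1.67), Twist1 (-0.89), Itga5 (-0.79) and Jag2 (-1.09). Among metabolic genes these were Fabp4 (-1.54), Mthfd2 (-1.5), Shmt2 (-1.38), Asns (-0.73), Ldha (-0.66) and Pgam1 (-0.52). The others were Mmd (-0.90), Zc3h11a (-0.70), Nfat5 (-0.63) and Wwtr1 (-0.49). It was positive for 10 genes, Gdpd2 (1.9), Crim1 (0.61), Bad (0.66), Pcolce (0.80), Hmox1 (0.96), Irgm1 (1.15), Mmp14 (1.32), Gbp2 (2.22), Bmf (2.27) and Iigp1 (3.00).

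Several of these genes changed direction. Dusp6 was 0.30 with Crizotinib alone and -4.03 on PD173074, Mmp3 0.68 and -1.67, and Gbp2 -1.12 and 1.05. Iigp1 was lower in both settings (-5.35 and -2.41), with 6 counts over the 3 Crizotinib libraries, so its fitted fold change depends on the prior count.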

How the results depend on the processing

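The number of genes called depended on the line block and on which libraries were fitted. With the block, edgeR called 246 genes on the 6 libraries, limma-voom 222 and DESeq2 96. On all 12 libraries with the block edgeR called 0, with a lowest adjusted p of 0.13. Without the replicate block edgeR called 0 on 6 and on 12 libraries, and DESeq2 on 12 libraries called 1. A floor of 1.5 on the absolute log2 fold change left 5 genes, and no filter on low counts gave 688 of 25555. Leaving out a line gave 338 to 486 calls (486 without A1005, 338 without A1129 and 410 without A1471) on 1 residual degree of freedom, of which 211, 173 and 202 were among the 246. The 246 genes kept their direction in every setting in which they were tested, except 1 of 245 without A1005. RLE scaling gave 279 calls, total counts 260, at least 10 counts in every library 197, and offsets for exon length and GC, an alternative chosen after seeing the data, 236.

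The mean r of the change between lines was 0.145, and 0.117 with a prior count of 0.5, 0.134 to 0.153 with a line left out, and 0.104, 0.213, 0.348 and 0.420 in 4 equal bins of expression from lowest to highest. That with the change from PD173074 to the combination was 0.0655. The share of called genes with the same sign there was 60.3%, and 45.7 to 62.1% with a line left out, lowest without A1129.

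Of the named genes, 4 that were not called changed sign: Gdpd2 (-0.951 to 0.026 with a line left out, above 0 without A1005), Bmf (-0.067 to 0.398 with a line left out, below 0 without A1129), Bad (-0.028 to 0.03 with a line left out, above 0 without A1471, and 0.023 with the offsets) and Hes1 (-0.137 to 0.182 with a line left out, above 0 without A1005, 0.089 with all 12 libraries and the block, and 0.04 with the offsets). The causes of these differences were not tested. Genes with few counts are limited by depth, as for Iigp1 and Il24.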
